A study of Rattus norvegicus with 2 samples.

Results

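Passenger strand microRNAs (miRNAs) were described in rat carotid artery with and without balloon injury. They were taken as the array rows for rat miRNAs whose name ends in an asterisk, except 13 rows for strands such as miR-21*, miR-126* and miR-9* that the selection leaves out. This gave 45 rows of 350 rat miRNA rows. Total RNA labelled with Cy3 was measured on 1-colour arrays, with 1 array from an uninjured carotid artery and 1 from a carotid artery taken 10 days after balloon injury. Both came from male Sprague-Dawley rats of about 250 g, with no other treatment or allele in the labels. Balloon injury strips the endothelium and stretches the wall with an inflated catheter, after which smooth muscle cells build a neointima. The sources used here do not say how many rats stand behind each RNA sample. With 1 array per group there was no replicate error and no test, so every value below describes these 2 arrays.

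A miRNA hairpin is cut by Dicer into a short duplex, and usually 1 strand, the guide, is kept by an Argonaute protein and directs repression of messenger RNAs. The opposite strand, the passenger, is mostly discarded, and older miRBase names marked it with an asterisk. Which strand is kept depends on the duplex ends and can differ between tissues, and some hairpins supply both strands. The asterisk therefore records which strand was first thought to be rarer, not which is rarer in artery.

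For the detected passenger strands, mature sequences are shown where they were matched. They are from RefSeq on the rat build GRCr8, written 5′ to 3′ with the seed, bases 2 to 8, in capitals. The array files give no arm, so array names were paired by hand with a RefSeq 5p or 3p arm from older miRBase usage, and miR-330*, miR-7a* and miR-125b* were left unpaired because their arm was not certain. Both strands of the miR-140 hairpin come first, because its passenger was the brightest of all. They lie on chromosome 19 (chr19:52375353-52375373 for the 3p strand, plus strand) within the protein-coding gene Wwp2, on its coding strand.
miR-140* (miR-140-3p): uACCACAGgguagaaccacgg
miR-140 (miR-140-5p): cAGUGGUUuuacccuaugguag

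The strands of miR-28 and let-7d are shown because passenger and guide differed most between the arrays in these hairpins. miR-28 lies within Lpp, a protein-coding gene (chr11:89480263-89480284 for the 3p strand, minus strand). let-7d lies within a long non-coding RNA gene (chr17:16322327-16322348 for the 3p strand, plus strand).
miR-28* (miR-28-3p): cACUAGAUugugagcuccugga
miR-28 (miR-28-5p): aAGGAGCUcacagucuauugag
let-7d* (let-7d-3p): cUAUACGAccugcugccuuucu
let-7d (let-7d-5p): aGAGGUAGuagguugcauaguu

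Related passengers are shown together because their detection or ratio differed within a family. miR-24-1* and miR-24-2* are the discarded strands of 2 gene copies that make the same guide, miR-24, and they share a seed but differ at 5 positions of 22. miR-24-1 lies within Aopep (chr17:1818710-1818731, minus strand), and miR-24-2 lies on chromosome 19 (chr19:40859517-40859538, minus strand) outside any other gene of the RefSeq table. miR-30c-1* (chr5:139634467-139634488, minus strand, within Nfyc) and miR-30c-2* (chr9:33253735-33253756, plus strand, across a pseudogene and a long non-coding RNA gene) share a seed and differ at 3 positions. miR-99a* (chr11:29687441-29687462, plus strand, within a long non-coding RNA gene) and miR-99b* (chr1:67350108-67350129, plus strand, within Spaca6) also share a seed and differ at 3 positions.
miR-24-1* (miR-24-1-5p): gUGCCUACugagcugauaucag
miR-24-2* (miR-24-2-5p): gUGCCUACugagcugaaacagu
miR-30c-1* (miR-30c-1-3p): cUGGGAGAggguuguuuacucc
miR-30c-2* (miR-30c-2-3p): cUGGGAGAaggcuguuuacucu
miR-99a* (miR-99a-3p): cAAGCUCGuuucuaugggucug
miR-99b* (miR-99b-3p): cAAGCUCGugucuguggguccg

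The remaining detected passengers that matched a single RefSeq strand were miR-22*, miR-30a* and miR-338*. miR-22* (chr10:60805349-60805370, plus strand) and miR-30a* (chr9:33233987-33234008, plus strand) lie outside other genes of the table, and miR-338* (chr10:105796381-105796402, minus strand) lies within Aatk.
miR-22* (miR-22-5p): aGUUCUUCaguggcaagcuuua
miR-30a* (miR-30a-3p): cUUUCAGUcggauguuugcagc
miR-338* (miR-338-5p): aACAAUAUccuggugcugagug

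A sequence was matched for 10 of the 15 detected passengers, and miR-23a*, miR-30e*, miR-7a*, miR-125b* and miR-330* are named only. Among the 10, 6 begin with C, 2 with A, 1 with G and 1 with U, the last being miR-140*. Of the 11 matched guide strands of the detected passengers 5 begin with U, 4 with A and 2 with C. A first base of U was found in 36.2% of all 693 mature rat strands in RefSeq, while 204 began with A, 150 with C and 88 with G. Argonaute proteins are known to favour strands that begin with U or A. These counts describe the sequences and were not tested.

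Most passenger strands were not detected. A row was called detected when its flag in the array file was 1. On the uninjured array 12 of 45 passengers were detected (26.7%), against 47.4% of all 350 miRNA rows. On the injured array 15 of 45 were detected (33.3%), against 52.6% of all rows. On both arrays 12 of 45 were detected, against 45.1% of all rows, and 3 were detected on the injured array only (6.67%, against 7.43%), so that 15 were seen at least once (33.3%, against 54.9%). None was detected on the uninjured array only. The 42 guide rows of the same hairpins were detected far more often, 34 of them without injury, 33 after injury and 32 in both (76.2%).

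The 30 passengers detected on neither array had signals of at most 4.97 without injury and 5.98 after injury, both of them for miR-378*. Of these 30, 16 were listed at exactly 1 on both arrays, a value shared by many undetected rows whose origin the sources used here do not give. For comparison, the negative control features reached 8.19 without injury and 4.92 after injury. Among all undetected miRNA rows the highest signal was 8.84 in the uninjured artery, and in the injured artery it was that of miR-378*, 5.98. The flag is therefore not a simple limit on the signal, since let-7d* was detected on the injured array at 3.47.

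Bright guides did not always come with a detected passenger. A guide row was called bright when its signal exceeded the scaling point of its array, a signal of 401 without injury and 377 after injury, which is the 75th percentile of the miRNAs seen on both. Of the 17 passengers with such a guide, 8 were detected on both arrays and 9 on neither. Over all 45 passengers the shares were 26.7% on both and 66.7% on neither. Over all 350 miRNA rows they were 45.1% and 45.1%. Passengers of bright guides were thus detected no less often than passengers at large, and the difference was not tested. The 9 were let-7b*, let-7e*, let-7i*, miR-24-1*, miR-26b*, miR-27a*, miR-29b-1*, miR-30c-1* and miR-101a*. Their guide signals ran up to 4084 and 4095 for miR-24, the guide that miR-24-1* shares with the detected miR-24-2*. In all, 21 passengers were undetected on both arrays beside a guide measured on both, and for 6 hairpins neither strand was detected (miR-135a, miR-196a, miR-296, miR-323, miR-363 and miR-708).

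By family the detected passengers were few, and their counts are read against 26.7% of all 45 passengers and 45.1% of all rows detected on both arrays. In the miR-30 family, whose guides share a seed, 3 of 5 passengers were detected on both arrays, namely miR-30a*, miR-30c-2* and miR-30e*, while miR-30c-1* and miR-30d* were not. In the let-7 family, which restrains growth genes such as Hmga2, 1 of 4 was detected, let-7d*. Among the miR-23, miR-24 and miR-27 passengers 2 of 4 were detected, miR-23a* and miR-24-2*, and both miR-99 passengers were. None of the 4 passengers from the miR-17 cluster and clusters related to it was detected on either array: miR-20a*, miR-25*, miR-106b* and miR-363*. The miR-17 cluster is abundant in dividing cells. miR-363 was itself undetected, whereas the guide miR-20a had signals of 35.9 without and 112 with injury. Families of this size cannot be told from those shares, and their counts were not tested.

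Signals of passenger and guide are given side by side in the plot of signals and below. Brightness depends on the probe as well as on the amount of RNA, so the order of 2 probes is not an order of abundance.

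**Figure D1:**
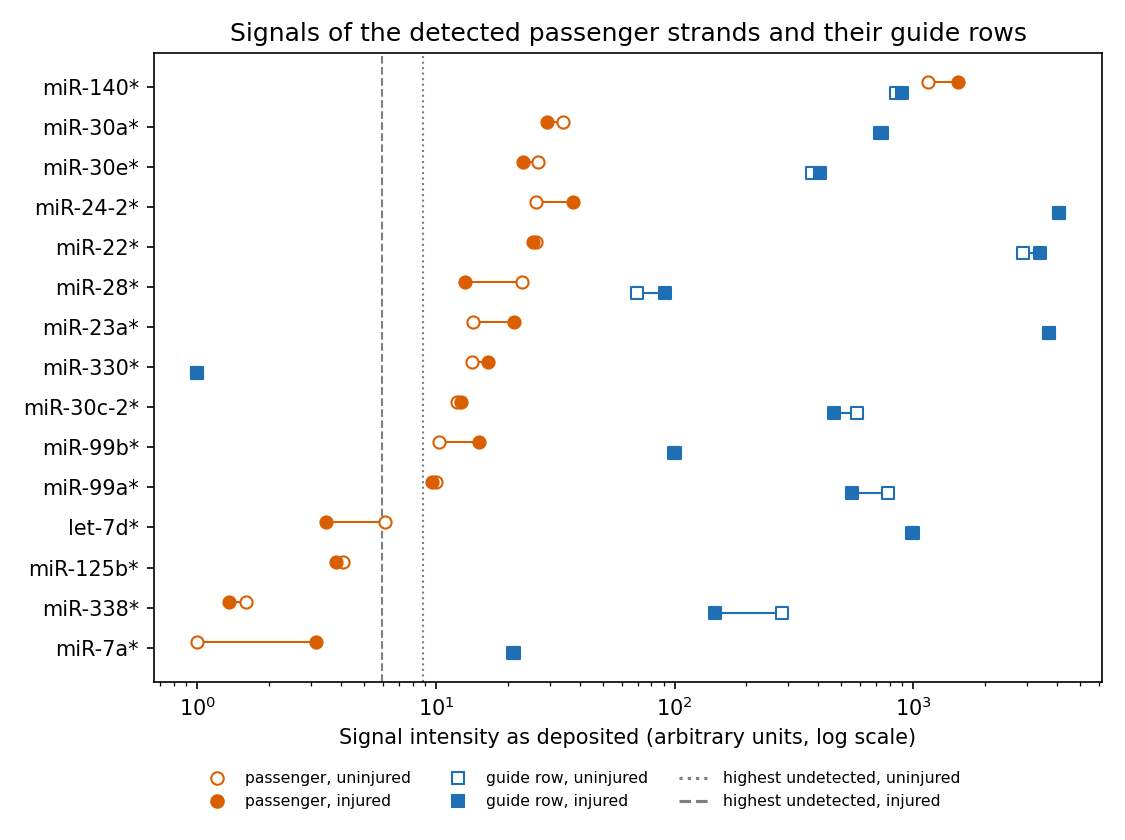
Deposited signal intensity (log axis) of the 15 passenger strands detected on at least 1 array (orange circles) and of their guide rows (blue squares), with open markers for the uninjured and filled markers for the injured array. miR-140* sits at 1153 and 1548, the other 11 passengers detected on both arrays lie under 40, and miR-125b*, miR-338* and miR-7a*, detected on the injured array only, lie below both grey lines, which mark the highest undetected signals (8.84 uninjured, 5.98 injured); miR-125b* has no single guide row, and the guide row of miR-330* is listed at 1.

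miR-140* stood apart as the bright passenger. The hairpin is best known from cartilage, where it is transcribed with Wwp2. miR-140* had a signal of 1153 without injury and 1548 after injury, and the row named as guide, miR-140, had 846 and 895. Of the 11 hairpins with both strands measured on both arrays, it was the only one in which the asterisk row was the brighter on both arrays. In the other 10 the asterisk row was the dimmer on both.

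miR-330* was detected on both arrays without its guide. Its signals were 14.2 and 16.5, while miR-330 was listed at 1 on both arrays and not detected. The array name does not show which RefSeq strand, miR-330-5p or miR-330-3p, the asterisk row stands for. The hairpin lies within the protein-coding gene Eml2 on chromosome 1, on the same strand.

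The other 10 passengers measured on both arrays were dim. The brightest of them on the uninjured array was miR-30a* at 34.2, with 29.3 on the injured array, beside miR-30a at 725 and 738. miR-30e* had 26.8 and 23.1, beside miR-30e at 376 and 409. As deposited, both passengers were slightly dimmer on the injured array while both guides were slightly brighter. With the arrays aligned at their control features, the log2 ratios of injured to uninjured were -0.48 for miR-30a and -0.38 for miR-30e. miR-30c-2* had 12.3 and 12.8, beside miR-30c at 582 and 465. That guide row cannot separate miR-30c-1 from miR-30c-2, because both gene copies make the same guide.

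miR-24-2* had signals of 26.3 and 37.4, beside miR-24 at 4084 and 4095. miR-23a* had 14.3 and 21.3, beside miR-23a at 3691 and 3693. These 2 hairpins and miR-27a form 1 cluster on chromosome 19, with 206 bases between miR-23a and miR-24-2. As deposited, both passengers were brighter on the injured array and both guide rows were nearly level. With the arrays aligned at their control features, both guide rows had a log2 ratio of injured to uninjured of -0.50. The passenger of the hairpin between miR-23a and miR-24-2, miR-27a*, was listed at 1 on both arrays, beside miR-27a at 1948 and 2332. miR-24-1*, from the paralogous cluster on chromosome 17, was also listed at 1 on both arrays.

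miR-22* had signals of 26.3 and 25.5, beside miR-22, a miRNA abundant in heart and muscle, at 2888 and 3412. miR-99a* had 10.0 and 9.63, beside miR-99a at 787 and 553. miR-99b* had 10.3 and 15.2, beside miR-99b at 99.7 and 100.4. The miR-99 guides are known to repress Mtor. As deposited, the guide of miR-99a was thus dimmer on the injured array with its passenger level. For miR-99b the passenger was brighter with its guide level. With the arrays aligned at their control features, the log2 ratios of injured to uninjured were -0.56 for miR-99a* and -1.01 for miR-99a. In that scaling they were 0.05 for miR-99b* and -0.49 for miR-99b.

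miR-28* had signals of 23.0 without injury and 13.3 after injury, beside miR-28 at 69.3 and 91.4. As deposited, the strands of miR-28 thus ran in opposite directions. The rise of the guide depended on the scaling. Its log2 ratio of injured to uninjured was -0.011 at the 75th percentile of all miRNA rows. With the arrays aligned at their control features it was -0.10. let-7d* had 6.11 and 3.47, beside let-7d at 985 and 995. Both let-7d* signals lie under the highest undetected signal of their array.

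The 3 passengers detected on the injured array only were at the floor of the array. miR-125b* had signals of 4.10 (not detected) and 3.80 (detected), so it was no brighter where it was detected. The array holds both miR-125b-5p, at 5157 and 4763, and miR-125b-3p, which was detected on neither array, so miR-125b* has no single guide row by name. miR-338*, whose hairpin is known from neurons and myelinating glia, had 1.60 and 1.36, beside miR-338 at 283 and 147. miR-7a* had 0.995 and 3.14, beside miR-7a at 21.0 and 21.2. None of the 3 gave a fold above 1 against the lowest detected signal of the uninjured array, 3.43, or their own signal where higher, so no ratio is given for them.

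The log2 ratio of injured to uninjured was taken after each array was divided by its scaling point, set over the 158 miRNAs detected on both. The scaling added 0.09 to every log2 ratio. Of the 12 passengers measured on both arrays, none was at least 2-fold higher and none at least 2-fold lower, against 12.7% and 3.8% of all 158 miRNAs. These 12 had a median log2 ratio of 0.09 and ranged from -0.73 to 0.66. The 158 miRNAs had a median of 0.14 and ranged from -2.47 to 2.565. At a threshold of 1.5-fold, 3 passengers were higher and 2 lower, which is 5 of 12, against 35.4% of all 158. The balance over all 158 miRNAs turned with the scaling: at least 2-fold higher and lower were 5.06% and 10.1% with the medians aligned, 4.43% and 12.7% at the 75th percentile of all miRNA rows, and 4.43% and 14.6% with the control features aligned. Under these 3 scalings 2 of the 12 passengers, let-7d* and miR-28*, were more than 2-fold lower, a count near those shares.

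**Figure D2:**
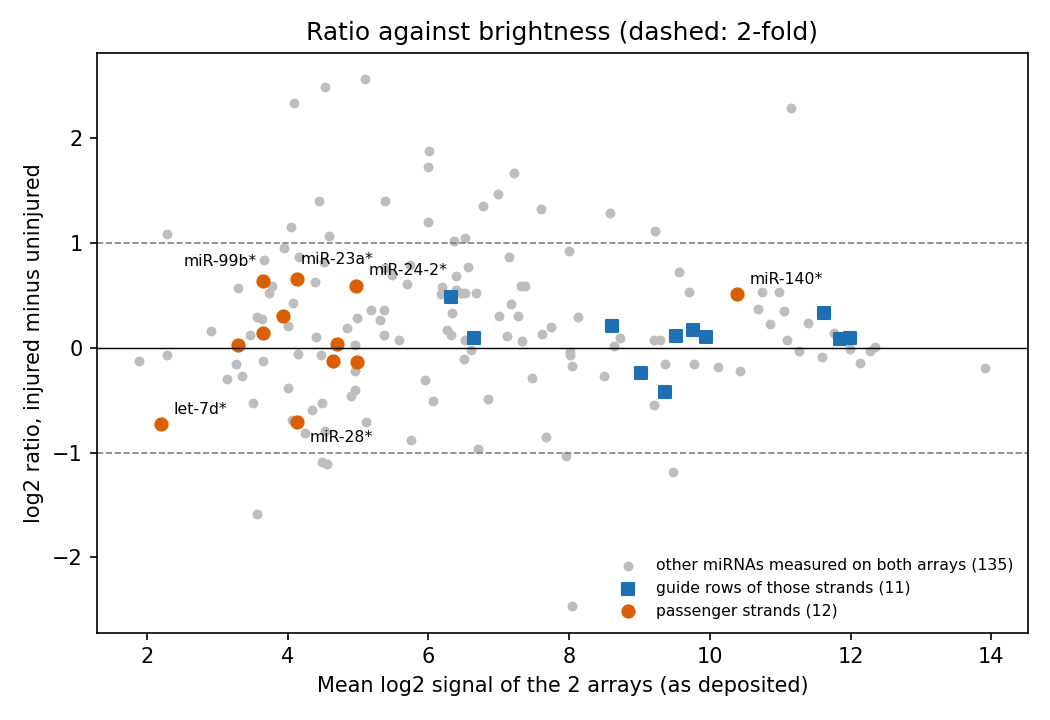
Log2 ratio of injured to uninjured signal (scaled at the 75th percentile) against the mean log2 signal of both arrays, for the 158 miRNAs measured on both. The 12 passengers (orange) lie between -0.73 and 0.66, inside the dashed 2-fold lines, and all but miR-140* are among the dim rows, where the other miRNAs (grey) also spread widely.

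The 3 passengers with the highest ratios were miR-23a*, miR-99b* and miR-24-2*. miR-23a* was 1.58-fold higher on the injured array (log2 ratio 0.66), miR-99b* 1.56-fold (0.64) and miR-24-2* 1.51-fold (0.59). Their log2 ratios stayed positive under each of the 6 scalings tried, but came down to 0.07, 0.05 and 0.0016 with the control features aligned. miR-140* was 1.43-fold higher (0.51), and -0.08 with the control features aligned. miR-330* had a log2 ratio of 0.30 and miR-30c-2* one of 0.14, and both turned negative once the medians were aligned.

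The lowest ratios were those of let-7d* and miR-28*. let-7d* was 1.66-fold lower on the injured array (log2 ratio -0.73, and down to -1.32 with the control features aligned). miR-28* was 1.63-fold lower (-0.70, down to -1.30). miR-30a* (-0.14) and miR-30e* (-0.13) were also negative under each scaling. miR-22* (0.04) and miR-99a* (0.03) lay near 0 and were negative without scaling. All scalings but quantile normalization shift every log2 ratio by the same amount, so they move the zero line in the plot of scalings and cannot change the order of the passengers.

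**Figure D3:**
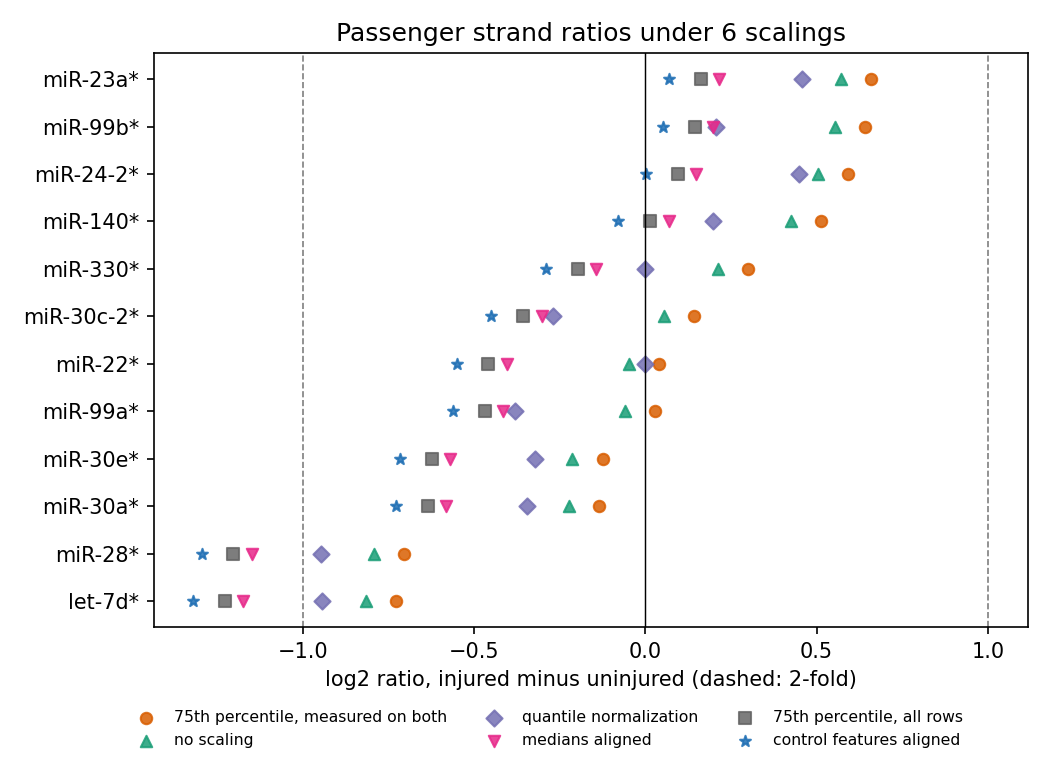
Log2 ratio of injured to uninjured signal for the 12 passengers measured on both arrays, with 1 marker for each of 6 ways to scale the arrays. Only let-7d* and miR-28* pass the dashed 2-fold line, in 3 of the scalings, while miR-23a*, miR-99b* and miR-24-2* stay at or above 0 in each.

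Ratios of this size were common among dim rows. Of the 12 passengers, 9 had signals from 10 to under 40 on both arrays, and 4 of these were at least 1.5-fold apart. In the same range there were 30 miRNAs without an asterisk, with quartiles of -0.40 and 0.57 on the log2 scale, and 13 of them were at least 1.5-fold apart (8 higher and 5 lower). No passenger ratio lay outside the range of those 30 rows, -1.11 to 1.40. A spread of this kind holds real differences and measurement error together, which 1 array per group cannot separate.

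The ratio of each passenger was set against that of its own guide row. Each probe is compared with itself on the other array, so a constant factor of the probe cancels, and any scaling by 1 factor per array cancels as well. An effect that changes with brightness would not cancel, and the passenger was the dimmer strand in 10 of the 11 hairpins. The 11 guide rows with both strands measured lay between -0.42 and 0.49, with a median of 0.10. None was 1.5-fold apart in this scaling, while miR-99a and miR-30c were 1.5-fold lower with the medians aligned, at the 75th percentile of all miRNA rows and with the control features aligned (-1.01 and -0.83 in the last). The passenger had the higher ratio in 6 hairpins and the lower in 5. The median absolute difference was 0.45 on the log2 scale. Across the 11 hairpins the ratios of passenger and guide correlated with Pearson's r = -0.26 and Spearman's rho = -0.45, which describes 11 points that share both arrays and the scaling.

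**Figure D4:**
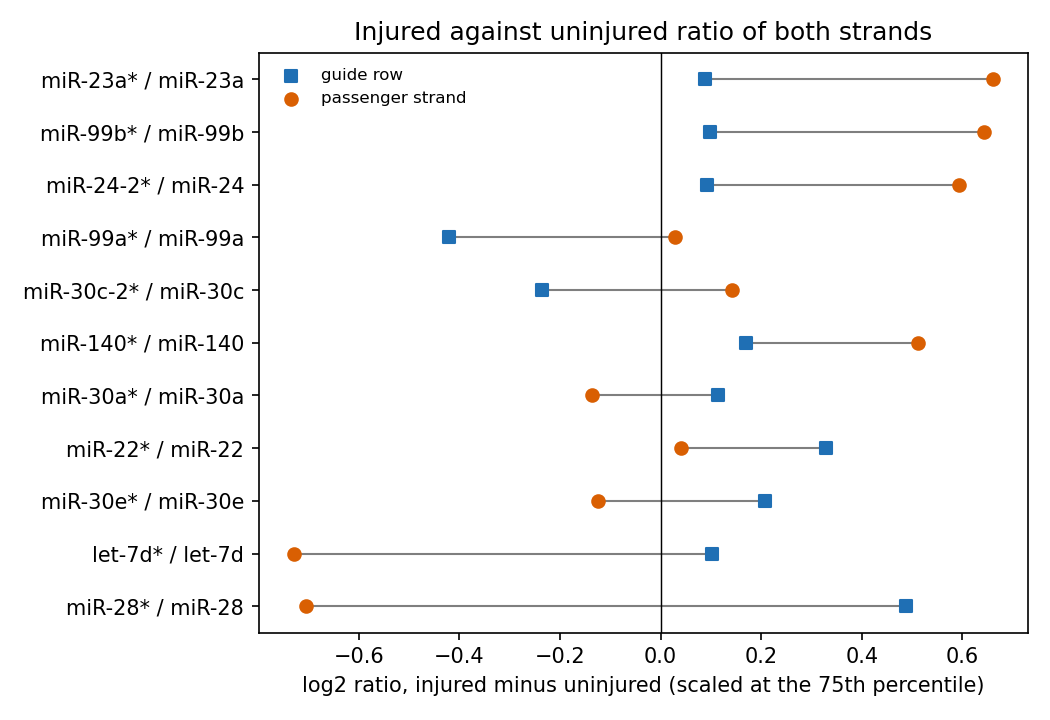
Log2 ratio of injured to uninjured signal for the passenger strand (orange circles) and its guide row (blue squares) in the 11 hairpins with both strands measured on both arrays, ordered by their difference. The widest gaps are those of miR-28 (-1.19, passenger lower) and let-7d (-0.83), and at the top miR-23a*, miR-99b* and miR-24-2* lie 0.57, 0.54 and 0.50 above guide rows that stay near 0.1.

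miR-28 had the widest gap between strands as reported. The passenger log2 ratio of -0.70 against the guide's 0.49 gave a difference of -1.19, a 2.28-fold shift of the strand ratio toward the guide on the injured array. With quantile normalization the difference was -1.01. As reported, miR-28 was the only hairpin of the 11 whose strands differed by at least 2-fold. let-7d came next at -0.83 (1.78-fold), from passenger signals at the floor. With quantile normalization the let-7d difference was -1.02, also past 2-fold and slightly wider than that of miR-28.

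The passenger gained on the guide by 0.57 for miR-23a, 0.54 for miR-99b, 0.50 for miR-24-2, 0.45 for miR-99a, 0.38 for miR-30c-2 and 0.34 for miR-140. The miR-24-2 and miR-30c-2 values rest on guide rows fed by 2 gene copies each. With quantile normalization these differences, in the order above, were 0.56, 0.54, 0.45, 0.12, -0.27 and 0.20, so that of miR-30c-2 changed sign. The guide gained in the others, with differences of -0.25 for miR-30a, -0.29 for miR-22 and -0.33 for miR-30e, and for miR-22 the difference was 0 with quantile normalization. With quantile normalization all 3 miR-30 differences were thus negative, whereas as reported miR-30c-2 went the other way from miR-30a and miR-30e.

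In the reported scaling, guides at least 1.5-fold apart between the arrays had no passenger measured on both arrays. Among 32 guide rows with a ratio, 7 were at least 1.5-fold apart, 4 higher and 3 lower on the injured array, against 35.4% of all 158 miRNAs. The higher ones were miR-20a (3.32-fold), miR-193 (1.90-fold), miR-106b (1.83-fold) and miR-25 (1.61-fold). Of these 4, miR-20a alone stayed past 1.5-fold under each scaling, and the log2 ratios of miR-193, miR-106b and miR-25 came down to 0.34, 0.28 and 0.10 with the control features aligned. The lower ones were miR-1, a muscle miRNA (log2 ratio -1.58), miR-218 (1.95-fold lower) and miR-338 (1.81-fold lower). Of the passengers of all 7 guides, 6 were undetected on both arrays, against 66.7% of all 45 passengers. So small a count cannot be told from that share and was not tested. The remaining one, miR-338*, was detected on the injured array at 1.36. The guides seen on 1 array only, miR-124 and miR-138 on the uninjured and miR-34c on the injured array, also had undetected passengers. Whether these passengers followed their guides was therefore not measurable at these signals. With the medians aligned 1 guide row was higher and 6 lower, against 37.3% of all 158 miRNAs either way. At the 75th percentile of all miRNA rows and with the control features aligned 1 was higher and 7 lower, against 39.2% and 43.7%. Under these 3 scalings the lower guides included miR-30c and miR-99a, and their passengers miR-30c-2* and miR-99a* were measured on both arrays.

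Hairpins whose strands are named by their 5p and 3p arms, without an asterisk, gave a second view of strand pairs. Of 29 such hairpins 6 had both arms measured on both arrays, 11 had 1 arm measured on both, and 8 had neither arm detected on either. In the 6 (miR-30b, miR-125a, miR-142, miR-199a, miR-324 and miR-345) the arms differed in log2 ratio by a median of 0.38, from 0.11 for miR-30b to 0.61 for miR-142, against 0.45 for the 11 passenger and guide pairs. The miR-30b value rests on miR-30b-3p at 5.14 and 4.62, under the highest undetected signal of each array. miR-142, of leukocytes, had log2 ratios of 2.49 for the 5p and 1.88 for the 3p arm, so both arms were brighter after injury. Past 2-fold, 5 of the 23 such arm rows with a ratio were higher and none was lower, against 12.7% and 3.8% of all 158 miRNAs. The higher rows include miR-339-3p and miR-17-5p, at 3.43 and 7.78 on the uninjured array, both under its highest undetected signal. With the control features aligned 3 of the 23 arm rows were higher and 2 lower, against 4.43% and 14.6%. The groups are small and the difference between them was not tested.

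The arrays also differed in the miRNAs of other cells. The smooth muscle miRNA miR-143 was the brightest row on both arrays (17014 and 13992), and miR-145 had a log2 ratio of -0.55. The endothelial miR-126 had 0.08. The leukocyte miRNAs miR-142-5p, miR-142-3p and miR-223 had log2 ratios of 2.49, 1.88 and 1.67. Another leukocyte miRNA, miR-342-3p, had only 0.19, from signals of 27.7 and 29.7. The erythroid miR-451 and miR-144 had -2.47 and -1.11. The liver miR-122 and the striated muscle miR-206 and miR-208 were detected on neither array, and miR-499 had -0.29. The muscle miRNA miR-1 had -1.58, from signals of 21.2 without injury and 6.64 after injury. Their part in the passenger values was not tested. In whole artery, fewer cells of a type and less RNA per cell cannot be told apart.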

How the data were processed

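An Agilent kit was used for Cy3 labelling of total RNA, per the labels. Each row of the deposited array files holds a linear signal intensity and a flag of 0 or 1. The authors' scanner software, background subtraction and normalization were not given in the sources used here. The flag is not defined there and was read as detection, since it was 0 on all 7 negative control features. The deposited value table holds a ratio to the uninjured array without scaling: its injured column matched injured over uninjured intensity (relative tolerance 1e-05) for all 349 shared names, and both column medians were 1. It served as an alternative.

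Intensities were put on the log2 scale in Python 3.11.15 and scaled by the 75th percentile of each array, taken over miRNAs detected on both. Control features entered no count. A guide row is the same name without asterisk (39 passengers) or also without copy number (5), and 1 passenger had several arm rows. Every passenger detected on at least 1 array is named. The computation was tested on simulated data without noise, which checks the arithmetic but not noise, the floor or the choice of scaling. The members, lists and comparisons were chosen with earlier results of these data known. Alternatives covered the scaling, the detection rule, the floor, the guide match and the fold threshold. Precision is limited by the number of arrays.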

Additional observations from a re-analysis of the deposited data

How the results depend on the processing

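The median log2 ratio of the 12 passengers measured on both arrays, 0.09 as reported, followed the scaling. It was 0.0026 without scaling and in the deposited value table, -0.35 with the arrays aligned at their medians, -0.13 with quantile normalization, -0.41 at the 75th percentile of all miRNA rows, -0.50 with the control features aligned, and 0.22 over the 10 passengers with signals of at least 10 on both arrays. The guide rows, at 0.10, gave 0.015, -0.34, 0, -0.40 and -0.49 under the same 5 scalings in that order. The median passenger minus guide difference of 0.34 was 0 with quantile normalization and -0.25 with guides of exactly the same name, so it has no settled sign. The count of passengers at least 2-fold apart, 0 as reported, was 2 with the medians aligned, 2 at the 75th percentile of all rows and 2 with the control features aligned (2 of 12, against 15.2%, 17.1% and 19% of all 158 miRNAs), and 5 at a threshold of 1.5-fold (against 35.4%). Relative to the reported scaling these scalings shifted all 158 miRNAs by medians from -0.59 to -0.09. Detection on both arrays was 12 by flag, 11 by a signal above the highest undetected one and 10 by flag with a signal of at least 10; on at least 1 array it was 15, 11 and 11. No bound above 1 appeared with either floor. No paired analysis was possible because each group holds 1 array. Signals at or under the highest undetected one (8.84 uninjured, 5.98 injured) are not separated from undetected rows. This limits let-7d* and the 3 passengers seen on 1 array, and the arm rows miR-30b-3p, miR-17-5p and miR-339-3p.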
